A study of Mus musculus with 20 samples.

Results

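Ido1 encodes indoleamine 2,3-dioxygenase 1, the enzyme that opens the ring of tryptophan in the first and rate-limiting step of the kynurenine pathway. It was found in the count table of the proximal colon (PC) by its Ensembl identifier, ENSMUSG00000031551, matched to the symbol through GENCODE M39, and is 1 of the 12701 genes in that table. The mice were C57BL/6, an inbred strain with no engineered allele named, and had been placed at weaning on a rodent diet that imitates American nutrient intake, the Total Western Diet (TWD). After 6 weeks they either stayed on the TWD (0% RPS) or received the TWD containing 2, 5, or 10% raw, resistant potato starch (RPS) for 3 more weeks, and a piece of the PC wall was taken for RNA sequencing. Each of the 4 diets had 5 libraries, and all 20 carried different numbers in their labels. RPS mostly passes the small intestine undigested and becomes a substrate for the bacteria of the large bowel.

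The product of IDO1 is converted to kynurenine by a formamidase, and kynurenine is then turned into kynurenic acid by aminotransferases or oxidised towards the precursors of NAD. Kynurenine is a ligand of the aryl hydrocarbon receptor, and kynurenic acid is a ligand of the receptor GPR35. Ido1 is best known as a gene induced by interferon gamma, in part through IRF1, in dendritic cells, macrophages, and epithelial cells, where the loss of tryptophan and the gain of kynurenine restrain T cells.

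In the annotation Ido1 is a protein-coding gene on the minus strand of chromosome 8 of GRCm39, from 25074150 to 25087025. It has 2 transcripts with 10 exons each and lengths of 1562 and 1658 bases, and together their exons cover 1827 bases. No other gene overlaps it, and 0 of the 1778 windows of 50 bases in its transcripts, the read length of the study, occurred in a transcript of another gene, so its reads should not be shared with a relative. Its paralog Ido2, which begins 7801 bases away, was not analysed here.

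The libraries held 20581013 to 35083751 counts, and the deposited Ido1 count ranged from 108 to 751. A count of 3, taken as the detection floor, equals 0.0855 to 0.146 CPM (counts scaled to the library total), while the mean of Ido1 was 9.08 CPM at 0% RPS and 19.5 CPM at 10% RPS. Counting error is the only error that such a floor covers. All 10 colonocyte and all 9 goblet cell markers were in the table, which fits the label of the tissue. Replicate 2 of the 0% RPS diet stood apart from the other libraries, with the highest smooth muscle score (2.30 SD above the mean). Of the libraries, 3 had label numbers outside the run of the other 17, and these were replicate 5 of 2% RPS and replicates 4 and 5 of 10% RPS. What these numbers stand for is not given in the sources used here.

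Ido1 was upregulated by 10% RPS and stepped upwards over the 4 diets. In the TWD alone its normalised read counts, that is, counts divided by the size factor of the library, were 171, 112, 348, 291, and 270 in replicates 1 to 5. With 2% RPS they were 251, 345, 199, 265, and 350. The lowest levels of all were replicates 1 and 2 of the TWD, and the 2% RPS libraries lay almost entirely inside the range of the TWD libraries. With 5% RPS the counts were 357, 273, 464, 404, and 523. With 10% RPS they were 368, 380, 598, 640, and 726. Of the 5% RPS libraries 4 were above the highest TWD library, and of the 10% RPS libraries all 5 were, with the 3 highest levels of the whole set among them.

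**Figure D1:**
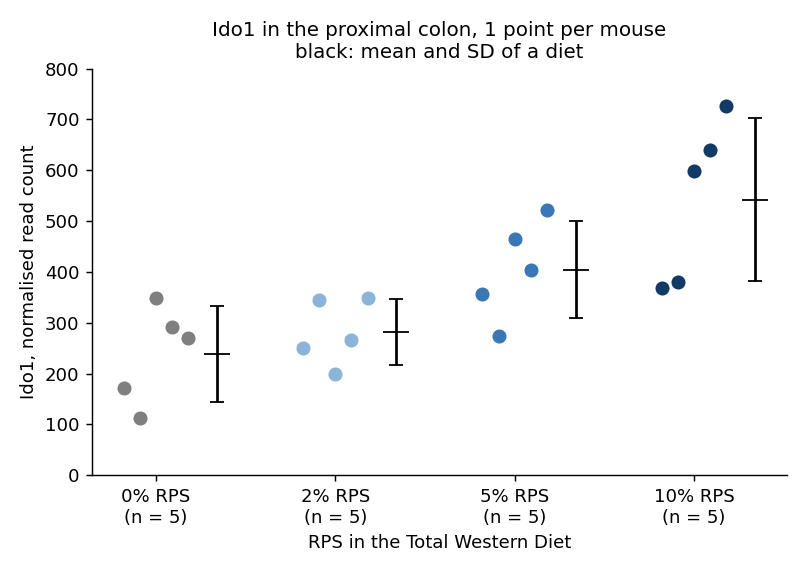
Normalised read count of Ido1 (vertical axis) in each of the 20 mice by percentage of RPS in the diet, 5 mice per diet, with the mean and SD of each diet in black. The 10% RPS mice sit between 368 and 726, all above the highest 0% RPS mouse at 348, while the 0% and 2% RPS mice overlap.

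The mean rose from 239 ± 95.2 (SD, n = 5) without RPS to 282 ± 64.4 with 2%, 404 ± 96.1 with 5%, and 542 ± 160 with 10% RPS. The spread within a diet was wide throughout, with a coefficient of variation of 22.8% to 39.9%. At 10% RPS the highest library had 1.97 times the level of the lowest, and in the TWD alone the ratio was 3.10. In whole tissue, a change in the number of cells that carry Ido1 and a change in the RNA per cell cannot be told apart.

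To find whether a given amount of RPS altered Ido1, the diets were compared with the TWD alone in 1 DESeq2 fit over the whole table and all 20 libraries. A gene was called where its adjusted p was 0.05 or below and its fold change at least 1.5. Ido1 passed at 10% RPS, where it was 2.27-fold higher (95% interval 1.59 to 3.24; log2 fold change 1.18 ± 0.26 SE, DESeq2 adjusted p = 0.00124). Of the 12561 genes tested at this level, 113 or 0.900% were called in either direction, and 66 or 0.525% were called higher. Complete separation of the 10% from the 0% RPS libraries in the upward direction, as Ido1 showed, was present in 170 genes or 1.35%. The exact permutation test, two-sided over all arrangements of the 10 libraries, gave p = 0.00794, which is the smallest it can give, and 0.0238 after adjustment over the 6 pairs of diets. edgeR's quasi-likelihood test gave an adjusted p of 0.0385. Without the 3 libraries of other label numbers, which include the 2 highest 10% RPS libraries, Ido1 was higher by 0.91 on the log2 scale and no longer passed (DESeq2 adjusted p = 0.0854). Those 3 libraries hold none of the TWD alone, so no comparison could be made within them.

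At 5% RPS the fold change was 1.69 (95% interval 1.18 to 2.42), with a log2 fold change of 0.76 ± 0.26 and a DESeq2 adjusted p of 0.101. It did not pass, in a comparison where 55 genes or 0.438% did. The exact test gave p = 0.0317, and 0.0595 after adjustment over the 6 pairs. The missed call depended on the high TWD library, since without 0% RPS replicate 3 the value was 0.93 and the DESeq2 adjusted p was 0.0245. At 2% RPS the fold change was 1.18 (95% interval 0.825 to 1.69, DESeq2 adjusted p = 0.828), and 3 genes or 0.0239% were called.

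The neighbouring diets in the order of the means were then compared with each other to see whether Ido1 differed at each step. From 2% to 5% RPS the fold change was 1.43 (95% interval 1.004 to 2.05), with an exact p of 0.0397, an adjusted exact p of 0.0595, and a DESeq2 adjusted p of 1. In that comparison 0 genes or 0.00% were called by DESeq2 or by edgeR, and 359 had an unadjusted DESeq2 p under 0.05. From 5% to 10% RPS it was 1.34 (95% interval 0.941 to 1.91, exact p = 0.159, DESeq2 adjusted p = 1), where 1 gene or 0.00796% was called. Thus no single step between neighbouring diets passed. The last step leaned on the 3 libraries of other label numbers. Without them its log2 fold change was 0.15 ± 0.30, against 0.42 ± 0.26 with all libraries. The value at 5% against 0% RPS remained 0.76. Between 2% and 10% RPS the libraries did not overlap, the fold change was 1.92 (95% interval 1.35 to 2.75), and the exact p was 0.00794 (adjusted 0.0238), but the DESeq2 adjusted p was 0.108. Of all genes, 99 or 0.788% had such a separation upwards and 7 or 0.0557% were called. That call turned with the fit: with only these 2 diets in the model it became 0.00657, and edgeR gave 0.451.

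Over all 4 diets, Ido1 climbed by 0.12 ± 0.024 on the log2 scale per 1% of RPS (95% interval 0.074 to 0.167; DESeq2 adjusted p = 0.00023, edgeR adjusted p = 0.0211). This trend had the 21st smallest adjusted p of the 12545 genes tested, of which 538 or 4.29% passed in either direction. A model with a separate level for each diet was not better than the straight line (likelihood ratio test in DESeq2, adjusted p = 0.9997). With log2(RPS percent + 1) as the dose the trend passed as well (0.34, DESeq2 adjusted p = 0.000346). The separate levels were again not better (likelihood ratio test in DESeq2, adjusted p = 0.9998). These fits therefore do not tell a line in percent from a line in its logarithm. The trend per 1% of RPS passed when each library was left out in turn, with values of 0.11 to 0.13, and without the 0% RPS diet, at 0.11 (DESeq2 adjusted p = 0.00896). Without the 3 libraries of other label numbers the trend was 0.10 (DESeq2 adjusted p = 0.0241).

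Ido1 was also more variable between mice than most genes of its level. Its dispersion, the variance between mice of the same diet beyond counting noise, was 0.094, against a median of 0.0128 in the 500 genes nearest to it in mean count, of which 96.2% had a lower value. A change of the same size in a gene of ordinary spread would therefore have been easier to detect. Per length, Ido1 stood at 7.38 CPM per kilobase of exon on average, above 64.0% of the genes.

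The enzymes that follow IDO1 were not called at any starch level. Of the 13 genes listed for the kynurenine pathway, 4 were in the table, and the remaining 9, among them Ido2, Tdo2, Kmo, and Kynu, were not analysed here. Apart from Ido1 itself, 0 of 3 passed in any comparison with the TWD or in the trend, with DESeq2 or edgeR, and 1 had an unadjusted DESeq2 p under 0.05 at 10% RPS. Among all 12561 genes tested at 10% RPS, 2365 or 18.8% had such a p, and the counts at an unadjusted p in the lists that follow are to be read against this share. At 10% RPS the formamidase gene Afmid had a log2 fold change of −0.09 ± 0.11 (DESeq2 adjusted p = 0.666), and the aminotransferase gene Kyat1 had −0.25 ± 0.12 (0.238). The aminotransferase gene Got2 had 0.04 ± 0.049 (0.689). The median of the 3 was −0.09, beside 0.00 over all genes. Over the 20 libraries the r of these 3 with Ido1 ran from −0.05 to 0.14, and 0 passed. After subtraction of the diet means their median r was 0.53, and this median was not tested. Afmid and Got2 overlap other genes in the annotation, and how strand was treated in counting is not stated, so their counts are less certain than that of Ido1.

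Compared per length, the level of Ido1 passed that of Kyat1 as RPS increased. In the TWD alone Ido1 stood at 4.97 ± 1.98 CPM per kilobase of merged exons (SD, n = 5) and Kyat1 at 7.65 ± 1.25. With 10% RPS these levels were 10.7 ± 3.02 and 6.11 ± 0.89. With the longest transcript as the length, Ido1 went from 5.48 ± 2.19 to 11.8 ± 3.33 and Kyat1 from 13.1 ± 2.15 to 10.46 ± 1.53, so the means at 10% RPS are then within the spread of each other. Afmid lay lower, at 1.55 ± 0.15 CPM per kilobase of merged exons with 10% RPS, and Got2 stood at 11.1 ± 0.71 on that scale.

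Other users of tryptophan and the receptors of its products were examined next. Of the 11 genes of the other tryptophan routes, 0 passed at any starch level with DESeq2 or edgeR, and 3 had an unadjusted DESeq2 p under 0.05 at 10% RPS, beside 18.8% of all genes. Tph1, the enzyme of serotonin synthesis in enterochromaffin cells, had a log2 fold change of 0.52 ± 0.22 at 10% RPS (DESeq2 adjusted p = 0.167). Wars1, the tryptophanyl-tRNA synthetase that interferon gamma also induces, had 0.21 ± 0.12 (adjusted p = 0.345). Of the 7 genes of NAD synthesis and of the 5 genes for the receptors and their targets, 0 passed at each starch level with either tool, and in each group 1 had an unadjusted DESeq2 p under 0.05 at 10% RPS. Ahr, the aryl hydrocarbon receptor, had −0.13 ± 0.13 (adjusted p = 0.597), and Gpr35 had −0.14 ± 0.13 (adjusted p = 0.548). Cyp1a1, the most direct target of the aryl hydrocarbon receptor, was not analysed here.

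Since Ido1 is an interferon-induced gene, the genes that carry and report interferon signals were compared. On the side of interferon gamma, 0 of 9 genes for receptors, kinases, transcription factors, and inducers were called at any starch level with DESeq2 or edgeR, and 5 had an unadjusted DESeq2 p under 0.05 at 10% RPS, beside 18.8% of all genes. Irf1, a transcription factor that acts on the Ido1 gene, had a log2 fold change of 0.28 ± 0.10 at 10% RPS (DESeq2 adjusted p = 0.0857). The median of the 9 was 0.20 at 10% RPS and all 9 were above 0, while over all genes the median was 0.00 and 50.01% were above 0. Of the 15 targets of interferon gamma in the table, such as guanylate-binding proteins, immunity-related GTPases, and immunoproteasome subunits, 0 were called at any starch level with either tool, and 1 had an unadjusted DESeq2 p under 0.05 at 10% RPS. Their median there was 0.13. Psmb8, an immunoproteasome subunit, was the only one of these 15 that passed in the trend (DESeq2 adjusted p = 0.0078), beside 4.29% of all genes. It is named here after its value was seen. Ifng itself, Ciita, and Cxcl9 were not analysed here.

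The genes called beside Ido1 belonged to the type I interferon lists. Irf7, a transcription factor that amplifies the type I interferon response (chromosome 7, 140842619 to 140846398), was the only one of 9 upstream genes called. Its log2 fold change was 1.23 ± 0.20 at 10% RPS (DESeq2 adjusted p = 1.21e-06, edgeR adjusted p = 0.0105) and 0.32 ± 0.20 at 5% RPS (DESeq2 adjusted p = 0.423). Zbp1, a sensor of Z-form nucleic acids (chromosome 2, 173033815 to 173060724), was called at 5% RPS (1.08 ± 0.29, DESeq2 adjusted p = 0.0205) and at 10% RPS (1.05 ± 0.29, 0.0138). Ifit1, which binds viral RNA (chromosome 19, 34618271 to 34632174), was called at 10% RPS (0.67 ± 0.21, DESeq2 adjusted p = 0.0427). edgeR did not call Zbp1 (adjusted p = 0.126 at 5% and 0.0789 at 10% RPS) or Ifit1 (0.113). Without the 3 libraries of other label numbers, neither Zbp1 (0.80, DESeq2 adjusted p = 0.162) nor Ifit1 (0.73, 0.124) passed at 10% RPS. With the mean log2 level of goblet cell markers as a covariate, an alternative chosen after seeing the data, Zbp1 passed neither at 5% (0.79, DESeq2 adjusted p = 0.367) nor at 10% RPS (0.71, 0.369), whereas Ifit1 still passed (1.04, 0.00222). The remaining 13 of the 15 type I targets, which included Isg15, Oas1a, and Mx1, did not pass at 10% RPS, where the median of the list was 0.24. In the trend 4 of the 15 passed with DESeq2, beside 4.29% of all genes, and 0 passed with edgeR. The 4 were Zbp1, Ifit1, and, named here after their values were seen, Oas3 and Ifih1. Irf7 overlaps Phrf1 and Ifit1 overlaps Ifit1bl2, in each case on the opposite strand.

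Of 7 further genes known to regulate Ido1, among them Bin1, Ptgs2, and Tgfb1, 0 were called at any starch level with either tool, and 0 had an unadjusted DESeq2 p under 0.05 at 10% RPS. Across all 81 related genes, 0 were called at 2% RPS, 1 at 5% RPS, and 3 at 10% RPS, all higher, beside the 0.900% called among all genes at 10% RPS. With edgeR these counts were 0, 0, and 1, and at an unadjusted DESeq2 p under 0.05 they were 7, 12, and 18, beside 8.70%, 16.6%, and 18.8% of all genes. The counts at an unadjusted p therefore lay near the share of all genes. When libraries were left out in turn the count at 10% RPS ran from 1 to 6. It was 1 without 0% RPS replicate 5 or 10% RPS replicate 3 or 5, 5 without 0% RPS replicate 3, and 6 without 0% RPS replicate 2.

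**Figure D2:**
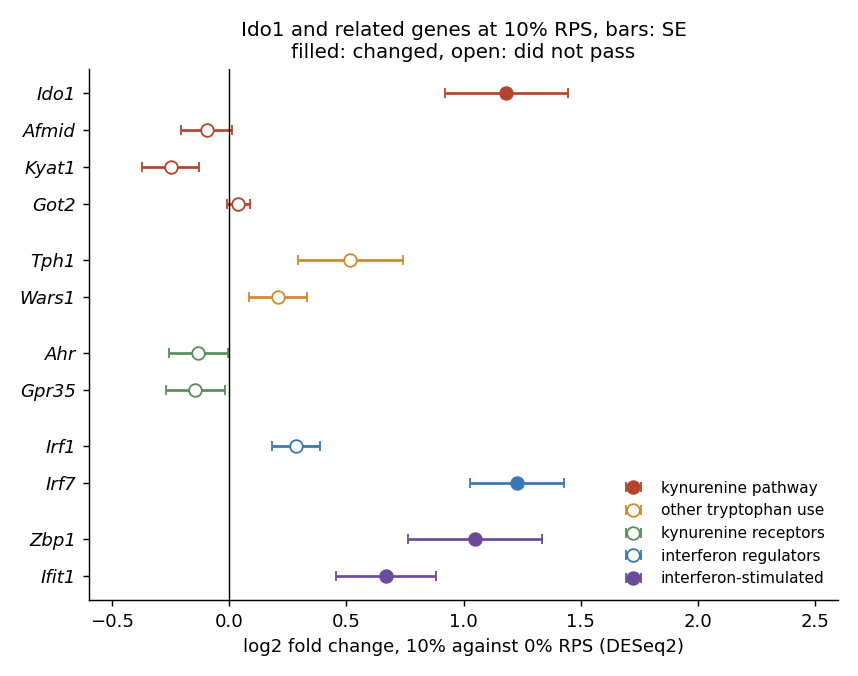
Log2 fold change with its SE at 10% against 0% RPS (horizontal axis, DESeq2) for Ido1 and 11 related genes in 5 functional groups, filled where the gene was called. Ido1 at 1.18, Irf7 at 1.23, Zbp1 at 1.05, and Ifit1 at 0.67 are filled, whereas the other 3 kynurenine genes lie between −0.25 and 0.04.

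The dose shapes of the called genes differed to the eye from that of Ido1. Irf7 had means of 2285, 2848, 2846, and 5356 normalised counts from 0% to 10% RPS, so that it was nearly level between 2% and 5% and moved at 10%. Zbp1 had means of 230, 345, 487, and 477, with no further increase after 5% RPS. Ifit1 went through 303, 380, 458, and 483. All 4 genes use the same 0% RPS libraries, and the differences between their shapes were not tested.

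**Figure D3:**
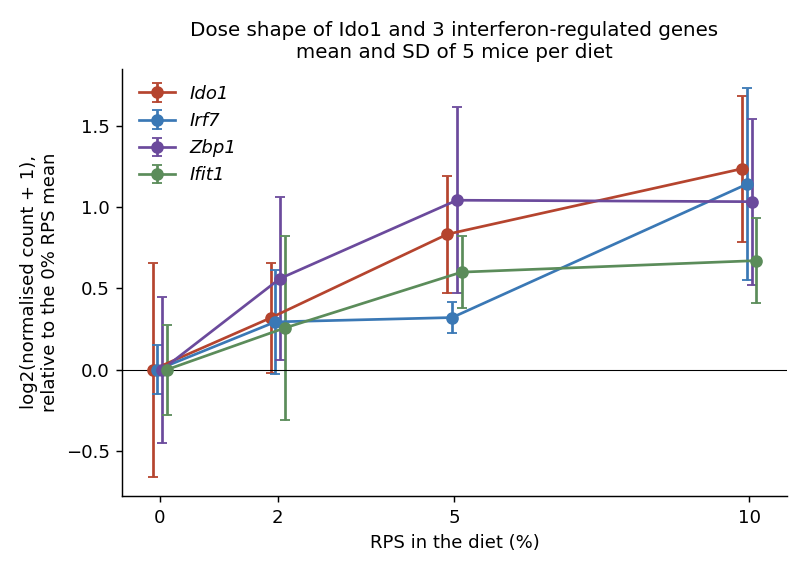
Mean of log2(normalised count + 1) relative to the 0% RPS mean (vertical axis, bars SD, n = 5 mice per diet) against the percentage of RPS for Ido1, Irf7, Zbp1, and Ifit1. The mean of Ido1 rises at each diet, that of Irf7 mainly at 10% RPS, and that of Zbp1 levels off after 5% RPS. Without the 3 libraries of other label numbers, the log2 fold change of Ido1 from 5% to 10% RPS was 0.15.

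The mouse with the most Irf7 was not the mouse with the most Ido1. At 10% RPS, Irf7 was highest in replicate 1 (7641 normalised counts), in which Ido1 was lowest for that diet (368), and lowest in replicate 4 (3100), in which Ido1 was second highest (640). Over the 20 libraries the correlation between the variance-stabilised values of Ido1 and Irf7 was r = 0.47 (permutation p = 0.0367, adjusted over 12250 genes 0.198) and rho = 0.54 (permutation p = 0.0162). After subtraction of the diet means it was r = −0.23 (permutation p = 0.403, adjusted 0.705) and rho = −0.26 (p = 0.32). Within diets the corresponding r was 0.32 for Zbp1, 0.045 for Ifit1, and 0.34 for Irf1 (adjusted permutation p of 0.484 to 0.945). None of these passed after adjustment. Among the 9 upstream genes of the type I list, Irf3 was the only one that passed over the libraries, beside 2.31% of all genes. It was negatively correlated with Ido1 (r = −0.68) and is named here after its value was seen.

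To find the genes most like Ido1, its variance-stabilised values were correlated with those of all 12250 genes whose mean normalised count was 20 or higher. Over the 20 libraries, which share the diets, 283 genes or 2.31% passed an adjusted permutation p of 0.05, of which 115 were positively and 168 negatively correlated. At an unadjusted p under 0.05 there were 2671. The number called rested on single mice. Leaving out 10% RPS replicate 5, the mouse with the most Ido1, left 0 genes, and so did leaving out the 2 libraries farthest from the median of Ido1 (that mouse and 0% RPS replicate 2). It was 20 without 10% RPS replicate 4, 23 without 0% RPS replicate 1, 35 without 10% RPS replicate 3, and 172 without 2% RPS replicate 4, whereas it was 483 without 5% RPS replicate 2 and 474 without 5% RPS replicate 5. Replicates 4 and 5 of 10% RPS are among the 3 libraries of other label numbers. The correlations were not repeated without those 3. The coefficients of the leading genes moved less than the counts.

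The highest coefficients belonged to Sh3bgrl2 (r = 0.86, rho = 0.72), Atp2b1 (0.86, 0.85), Ccl6 (0.83, 0.84), and Lrrc8b (0.83, 0.79). They were followed by Chn2 (0.82), St6gal1 (0.82), Tm9sf2 (0.81), and Rab37 (0.81). For each of these 8 genes the permutation p of r was 1e-05 or 2e-05, where 1e-05 is the smallest that 100000 resamples can give, and the adjusted p was 0.0153. The permutation p of rho was at most 0.00052. Atp2b1 encodes a calcium pump of the plasma membrane, Ccl6 a chemokine, Lrrc8b a subunit of volume-regulated anion channels, St6gal1 a sialyltransferase, and Rab37 a small GTPase of secretory granules. Without the 2 libraries farthest from the median the 8 coefficients were 0.70 to 0.81. Ccl6 went from 7737 ± 799 normalised counts (SD, n = 5) in the TWD to 11485 ± 2809 with 10% RPS, and Rab37 from 202 ± 34.4 to 354 ± 145.

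The lowest coefficients belonged to Mfap2 (r = −0.86, rho = −0.83), Ecm2 (−0.84, −0.81), Tmcc2 (−0.83, −0.77), and Htr3a (−0.82, −0.79), with adjusted permutation p of 0.0153 to 0.0204. Mfap2 and Ecm2 encode proteins of the extracellular matrix, and Htr3a a subunit of the serotonin-gated ion channel. Mfap2 was lowest in 10% RPS replicate 5, at 75.4 normalised counts, and highest in 0% RPS replicate 2, at 168, the mice with the most and the least Ido1. Without these 2 libraries the coefficient of Mfap2 was −0.76, and those of the other 3 genes were −0.73 to −0.70.

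Since diet alone can align genes, the diet means were subtracted and the libraries were permuted within diets. By this measure 18 genes or 0.147% passed, 11 positively and 7 negatively, and 4 of them were among the 283. With 1928 genes at an unadjusted p under 0.05, this count was unstable as well: it was 0 without 0% RPS replicate 2 or 4, without 2% RPS replicate 2, 3, or 5, without 5% RPS replicate 5, and without 10% RPS replicate 1 or 4. It was 3 without 0% RPS replicate 1, 3, or 5 or 2% RPS replicate 1 or 4, 6 without 5% RPS replicate 4, 9 without 5% RPS replicate 2, and 10 without 5% RPS replicate 1. By Spearman's rho no gene passed. The genes that follow are therefore an order by likeness rather than a set of firm associations.

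Rfx5, a subunit of the complex that binds the promoters of MHC class II genes, had the highest coefficient within diets (r = 0.89, permutation p = 1e-05, adjusted 0.035, rho = 0.84, permutation p = 8e-05). Its level did not follow the diet, with 324 ± 59.4 normalised counts in the TWD and 304 ± 36.7 with 10% RPS (log2 fold change −0.09, DESeq2 adjusted p = 0.718). After Rfx5 came 9130604C24Rik (0.87), Oxld1 (0.85), Sh3bgrl2 (0.84), Nudt7 (0.83), Bcl11b (0.82), Slc49a3 (0.82), and Mgst2 (0.81), of which Bcl11b and Mgst2 did not pass (adjusted permutation p = 0.0817 and 0.077). Nudt7 encodes a coenzyme A hydrolase of peroxisomes and Bcl11b a transcription factor of the T cell lineage. The lowest were Plekhf1 (−0.85), Zfp592 (−0.85), Mn1 (−0.84), and Dok3 (−0.84), with adjusted permutation p of 0.035 to 0.0437. Sh3bgrl2 was the only gene among the 8 highest by both measures.

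**Figure D4:**
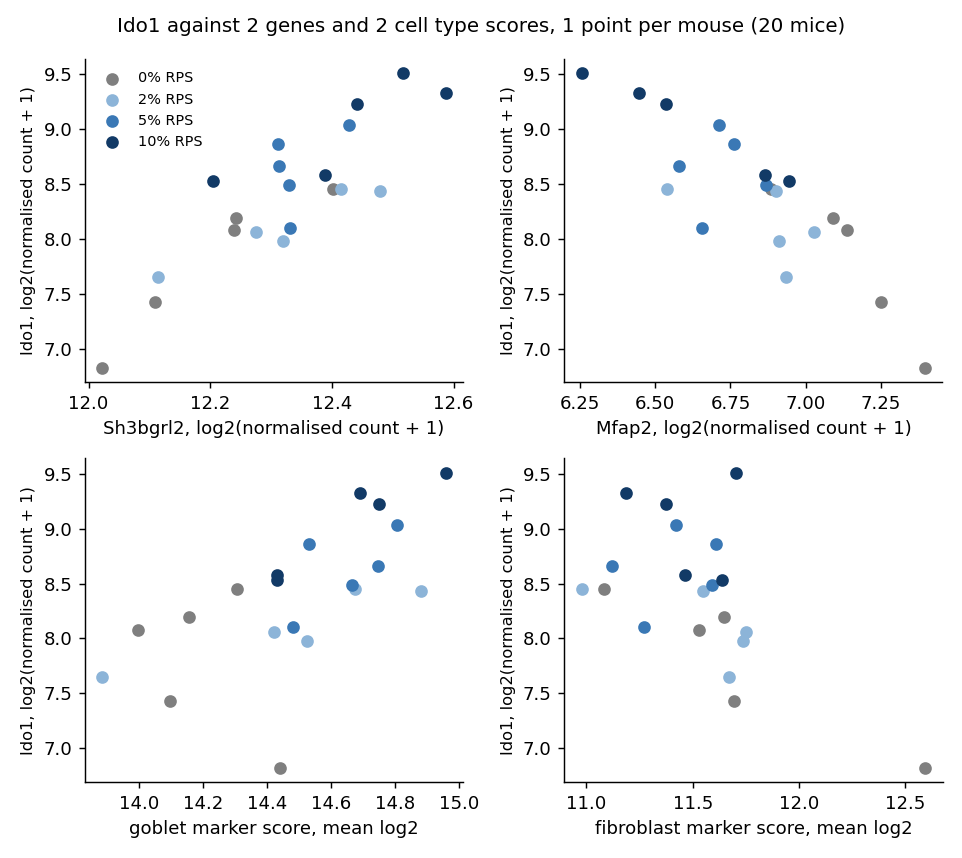
Ido1 as log2(normalised count + 1) on each vertical axis against Sh3bgrl2 and Mfap2 (same scale) and against the goblet and fibroblast marker scores (mean log2 over the markers), 1 point per mouse, coloured by diet, 20 mice. Points climb with Sh3bgrl2 and the goblet score and descend with Mfap2 and the fibroblast score, and the 0% RPS mouse with the least Ido1 lies at the end of 3 of the 4 panels.

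The cell types that a piece of colon holds were followed by the mean log2 level of their markers. The 13 marker lists were those of epithelial, immune, stromal, vascular, muscle, and nerve cells, and 11 had genes in the table. None of the 10 dendritic cell or 6 neutrophil markers and only 3 of 10 T and NK cell markers were in it, so these cells were not analysed here or only in part. Ido1 was positively correlated with the goblet cell score, from 9 of 9 markers (r = 0.65, permutation p = 0.00173, adjusted over 11 lists 0.019; rho = 0.70, p = 0.00088, adjusted 0.00968). Without the 2 libraries farthest from the median r was 0.72, and within diets it was 0.43 (permutation p = 0.0537, adjusted 0.136). The goblet score itself was 14.2 ± 0.18 in the TWD (SD, n = 5) and 14.5 ± 0.37, 14.6 ± 0.14, and 14.7 ± 0.23 with 2, 5, and 10% RPS. The summed markers ranged from 489793 to 828468 normalised counts in the TWD and from 605779 to 1095909 with 10% RPS, and no marker was at 0 in the mean of a diet. As single genes, 0 of the 9 goblet markers were called at 5% or 10% RPS with DESeq2 or edgeR, although all 9 had a log2 fold change above 0 at 10% RPS, with a median of 0.46, and 6 had an unadjusted DESeq2 p under 0.05, beside 18.8% of all genes. In the trend 1 of the 9, Agr2, named here after its value was seen, passed with DESeq2 (0.053 ± 0.016 per 1% of RPS, adjusted p = 0.0358) and did not with edgeR (adjusted p = 0.0969). Among all genes, 4.29% passed in the DESeq2 trend.

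With the goblet score as the covariate, the log2 fold change of Ido1 at 10% RPS was 0.71 ± 0.29 and did not pass (DESeq2 adjusted p = 0.251), and the trend was 0.083 per 1% of RPS (DESeq2 adjusted p = 0.0734). The 5% RPS value was 0.32 (adjusted p = 0.776). The score moves with the diet, so that the diet and the goblet score cannot be told apart by this fit.

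Stromal scores ran the other way. The fibroblast score, from 6 of 6 markers, had r = −0.59 with Ido1 (permutation p = 0.00771, adjusted 0.0424; rho = −0.49, p = 0.0293, adjusted 0.11), −0.48 without the 2 libraries farthest from the median, and −0.61 within diets (permutation p = 0.0216, adjusted 0.136). Its sum was 16143 to 49276 normalised counts in the TWD and 17393 to 26069 with 10% RPS. With this score as a covariate, also chosen after seeing the data, Ido1 still passed at 10% RPS (1.08, DESeq2 adjusted p = 0.00053). The endothelial (r = −0.53, rho = −0.38), smooth muscle (−0.51, −0.49), and neuron and glia scores (−0.45, −0.46) had adjusted permutation p of 0.0599 to 0.098 for r, and with the smooth muscle score as a covariate Ido1 was 1.12 (DESeq2 adjusted p = 0.00058). The macrophage score, from 9 of 10 markers, had r = −0.36 over the libraries (permutation p = 0.124, adjusted 0.195; rho = −0.14, p = 0.565). The colonocyte score had r = −0.13 (permutation p = 0.594, adjusted 0.726; rho = −0.12, p = 0.622). As single genes, the 10 colonocyte markers had a median r of 0.40 with Ido1, from −0.47 to 0.69, and Epcam passed over the libraries (r = 0.69, adjusted permutation p = 0.0419; rho = 0.57). At 10% RPS 8 of the 10 colonocyte markers had a log2 fold change above 0 and 5 had an unadjusted DESeq2 p under 0.05. In the trend 2 of the 10, Epcam (DESeq2 adjusted p = 0.023) and Car4 (0.0329), were called higher with DESeq2. Among all genes, 4.29% were called in either direction in that trend. Neither marker was called with edgeR. The tuft (r = −0.37), enteroendocrine (0.035), T and NK cell (0.32), and B and plasma cell scores (−0.035) had adjusted permutation p of 0.193 to 0.885. Within the enteroendocrine list, Insl5, a peptide hormone gene of colonic enteroendocrine cells, was called lower at 10% RPS (log2 fold change −1.61 ± 0.48, DESeq2 adjusted p = 0.0258, edgeR adjusted p = 0.107). It was also negatively correlated with Ido1 (r = −0.61, adjusted permutation p = 0.037; rho = −0.67). In the enteroendocrine list 3 of the 6 markers had a log2 fold change above 0 at 10% RPS, with a median of 0.049. The median r of the 6 with Ido1 was 0.30, from −0.61 to 0.61. Dcn (r = −0.69) passed over the libraries in the fibroblast list, where r ran from −0.69 to −0.30. Pecam1 (−0.73) passed in the endothelial list, where r ran from −0.73 to 0.32. Epcam, Car4, Insl5, Dcn, and Pecam1 are named here after their values were seen.

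**Figure D5:**
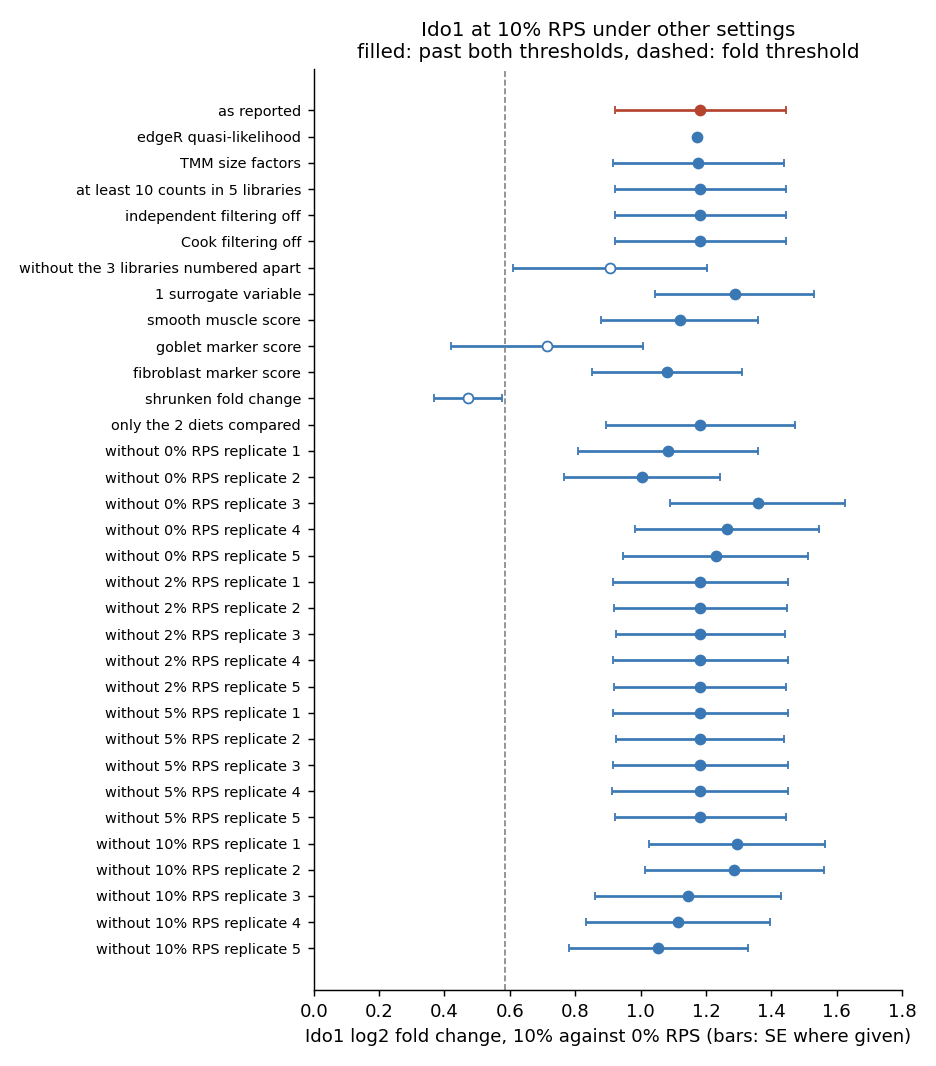
Log2 fold change of Ido1 at 10% against 0% RPS (horizontal axis, bars SE where given) under each processing setting and with each library left out, filled where it passed both thresholds. The values run from 0.47 to 1.36, and the open points are those without the 3 libraries of other label numbers, with the goblet score as a covariate, and with the shrunken fold change.

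The genes beside Ido1 on the chromosome were compared to see whether the region moved with it. Within 500 kb, 5 genes were in the table, Tcim, 9130214F15Rik, Adam9, Tm2d2, and Plekha2, and 0 of them were called at any starch level. These are named because they are few, after their values were seen. Their log2 fold changes at 10% RPS were −0.079 to 0.12. Of these, 9130214F15Rik, an unclassified transcript 76052 bases from Ido1, had a within-diet r of 0.80 with Ido1 from only 59.7 normalised counts on average at 10% RPS. It was singled out from the 5 after its value was seen. Bcl11b and Mgst2 had higher coefficients within diets (0.82 and 0.81) and did not pass. Whether the transcript and Ido1 are regulated together was not tested.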

How the data were processed

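RNA of the proximal colon of 20 mice was sequenced by the authors as single reads of 50 bases from stranded mRNA libraries, aligned to GRCm39, and counted per gene in CLC Genomics Workbench. The deposited values are raw read counts; no library was pooled. The gene annotation, strand setting, and treatment of multiply matching reads are not given in the sources used here. Libraries were grouped by the starch percentage in their labels.

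All genes were fitted with DESeq2 (1.42.0, R 4.3.3; median-of-ratios size factors, default filters), as in the study, and with edgeR (4.0.16). Adjusted p values are Benjamini-Hochberg over all genes. Exact and permutation tests (100000 resamples for correlations) were two-sided, the former on log2(normalised count + 1). Symbols came from GENCODE M39 (12682 of 12701 identifiers matched). The DESeq2 fit and edgeR were tested on simulated counts, and the correlations on simulated normally distributed values.

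Ido1, the gene lists, and the tests were chosen with earlier results of these data known. Named were Ido1, the kynurenine genes, list genes changed against 0% RPS together with Irf1, Ahr, Gpr35, Tph1, and Wars1, and the 8 highest and 4 lowest correlations with Ido1. A gene that the naming rule includes is not reported here. Alternatives comprised edgeR, TMM factors, other filters, shrunken fold changes, covariates, only the 2 diets compared, and omission of libraries.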

Additional observations from a re-analysis of the deposited data

Results flagged for a closer look

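For each of the 35 named genes and each diet, the gap between the most extreme of the 5 libraries and its neighbour was compared with the range of the diet by Dixon's criterion (0.71 for 5 libraries). Of 140 such groups 4 passed, and chance flags about 1 in 20 groups, so the number is no higher than chance gives. Ido1 itself was not among them at any diet. The libraries that stood apart were 5% RPS replicate 4 for Got2 (1562 normalised counts, the next at 1646), 10% RPS replicate 5 for Wars1 (5421, the next at 4108), 5% RPS replicate 5 for Sh3bgrl2 (5511, the next at 5154), and 10% RPS replicate 1 for Plekhf1 (251, the next at 149).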

How the results depend on the processing

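No alternative reversed a direction, and the other settings left Ido1 on its side of the threshold except as follows. At 10% RPS, Ido1 fell short without the 3 libraries of other label numbers (0.91), with the goblet score (0.71, and 0.083 per 1% in the trend), and with the shrunken fold change (0.47, under the fold threshold). At 5% RPS it passed with 1 surrogate variable (0.80) and without 0% RPS replicate 3 (0.93). Against 2% RPS it passed at 10% when only the 2 diets were fitted (0.94). With each library left out, Ido1 was 1.004 to 1.36 at 10%, 0.58 to 0.93 at 5%, and 0.06 to 0.41 at 2% RPS, and 0.82 to 1.05 between 10% and 2% RPS, where it passed without 0% RPS replicate 1 or 2 or 10% RPS replicate 1 or 2. Fits that gave Ido1 no adjusted p were not counted. The range at 2% RPS therefore rests on 18 of 20 fits, and that between 10% and 2% RPS on 16. With each library left out, the steps from 2% to 5% and 5% to 10% RPS were 0.41 to 0.63 and 0.30 to 0.53. Without the 3 libraries of other label numbers these steps were 0.61 and 0.15, and the value between 10% and 2% RPS was 0.76. Correlated genes numbered 42 by Spearman's rho (0 within diets), 0 without the 2 farthest libraries (0 within diets), and 0 to 483 (0 to 25 within diets) with each library left out. Related genes called numbered 0 at 5% and 1 at 10% RPS with edgeR, and 0 to 4 and 1 to 6 with each library left out. With each library left out, Zbp1 missed the threshold in 5 of 20 fits at 5% and 3 of 20 at 10% RPS, and Ifit1 in 10 of 20. Both also missed it with edgeR, with the shrunken fold change (0.33 to 0.37), and at 10% RPS without the 3 libraries, and Zbp1 with the goblet score. The causes were not tested. No paired analysis was possible because the labels give no replicate numbers that diets share.

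With 5 mice per diet, the 95% interval of the Ido1 fold change at 10% RPS spans 1.59 to 3.24, and with at least 108 counts per library counting error is smaller than the spread between mice. The table is filtered, so genes such as Ifng could not be read, and RNA alone gives no enzyme activity or kynurenine level.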
